A study of Homo sapiens with 3 samples.

Results

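The SLC25A genes encode mitochondrial carriers, and their ERRγ binding was described here from every peak of the deposited list whose gene name was SLC25A followed by a number. Of 15223 peaks, 14 (0.0920%) were named for such a gene, and they fell on 12 of the 48 protein-coding SLC25A genes, so that 36 carriers had no peak under that name. The carriers were grouped by the substrate they are known to move. The peaks came from chromatin immunoprecipitation with sequencing (ChIP-seq) of estrogen-related receptor gamma (ERRγ, gene ESRRG) in the breast cancer cell line BT-474, which is luminal and carries an amplified ERBB2 gene. All cells had received vehicle and were taken 90 min after fresh medium. A custom ERRγ antibody was used for 2 libraries, and 1 library of input DNA served as the control, all read as single 50 bp reads. The 2 ERRγ libraries were represented by 1 merged peak list on hg19 with no value per library, so there was no replicate spread, no depth per library is known here, and no test between samples was possible. The list holds no expression, so the identity of the cells could not be checked from it.

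SLC25 carriers sit mostly in the inner mitochondrial membrane, which is otherwise nearly closed to ions and metabolites, and exchange nucleotides, phosphate, organic acids, amino acids and cofactors between cytosol and matrix. They share a fold of repeated membrane-spanning modules and are imported after synthesis in the cytosol. The ADP/ATP carriers export the ATP made by oxidative phosphorylation and the phosphate carrier supplies its phosphate. The ERR receptors are orphan nuclear receptors known for activating genes of respiration and fuel oxidation, and they bind the extended half-site TCAAGGTCA, called the ERR element.

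Nearness was judged at several distances, measured from the peak to the transcription start site (TSS), negative when upstream. By the table's own gene names, 8 of 48 carriers had a peak within 10 kb of the TSS (16.7%, exact Clopper-Pearson 95% interval 7.48 to 30.2), 3 within 1 kb (6.25%, 1.31 to 17.2) and 12 within 50 kb (25%, 13.6 to 39.6). No further carrier was added at any distance. The 20037 protein-coding genes that serve as the background were counted by gene identifier, so that genes under older symbols were included, and the table names SLC25A52 and SLC25A53 by older symbols. Counted in that same way, 9 of 48 carriers had a peak within 10 kb (18.8%, 8.95 to 32.6), beside 11.5% of all genes. Within 1 kb there were 4 of 48 (8.33%, 2.32 to 20.0), beside 4.16%, and within 50 kb 14 of 48 (29.2%, 16.95 to 44.1), beside 22.6%. At any distance there were again 14, beside 29.6%. The share of carriers was above that of all genes at 1, 10 and 50 kb and below it at any distance. Each carrier interval took in the share of all genes; the intervals are wide with 48 genes and cover counting error only. The difference was not tested, and the account that follows is of single genes.

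**Figure D1:**
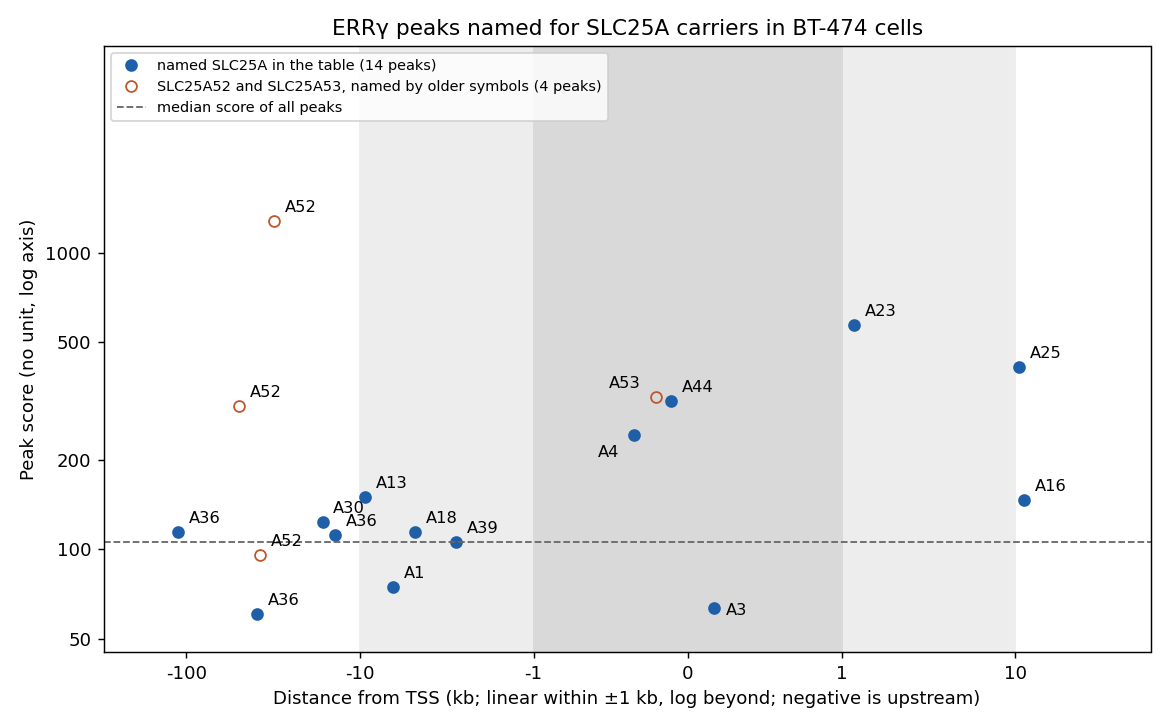
The score of each peak (log axis) is plotted against its distance from the TSS in kb, with gene names shortened to A and a number, the bands within 1 kb and 10 kb shaded, and the median of all 15223 peaks (106) as a dashed line. Filled points are the 14 peaks named SLC25A in the table and open points the 4 peaks of SLC25A52 and SLC25A53 under older symbols; only SLC25A3, SLC25A4, SLC25A44 and SLC25A53 have a peak within 1 kb.

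Peaks that covered a carrier's TSS were found at SLC25A4, SLC25A44 and SLC25A3. SLC25A4 encodes the ADP/ATP carrier of heart and skeletal muscle, and its peak lay on chromosome 4, 186063439 to 186064695, centred at -350 bp, with a score of 243. SLC25A44 encodes a carrier of branched-chain amino acids, and its peak, on chromosome 1 from 156162540 to 156164698, was centred at -111 bp with a score of 317. SLC25A3 encodes the phosphate carrier, and its peak, on chromosome 12 from 98987080 to 98988063, was centred at 168 bp, was annotated to the 5' UTR in exon 1 of 7, and scored 63.4. The first 2 of these scored higher than 76.3% and 81.6% of all peaks, whereas the SLC25A3 peak scored higher than 19%. The peak of SLC25A44 was also the widest of the 3, at 2158 bp against 1256 bp at SLC25A4 and 983 bp at SLC25A3.

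A further promoter peak belonged to a carrier that the table names by an older symbol. SLC25A53, an X-linked carrier whose substrate is not settled, is MCART6 there, and its peak (chromosome X, 103401275 to 103402556) was centred at -207 bp, covered the TSS and scored 326. It was as strong as the SLC25A44 peak, within 10 units of score, although the name rule counts SLC25A53 as unbound.

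The 250 bases before the TSS of these 4 genes are shown because their peaks covered the start site, so that the letters can be read against the ERR element. They were taken from RefSeq promoters of the GRCh38.p14 build, a different build from that of the peaks, and were matched by gene symbol. Each is written 5' to 3' on the strand of its gene, and the capitals mark the stretch of 9 bases closest to TCAAGGTCA on either strand, the first one where several were equally close.
SLC25A4 (chr4:185143016-185143265, plus strand): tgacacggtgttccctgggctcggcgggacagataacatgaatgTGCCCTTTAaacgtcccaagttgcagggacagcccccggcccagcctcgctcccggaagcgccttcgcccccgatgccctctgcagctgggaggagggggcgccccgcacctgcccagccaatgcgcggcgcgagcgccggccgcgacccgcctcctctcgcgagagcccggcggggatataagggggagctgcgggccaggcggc
SLC25A3 (chr12:98593436-98593685, plus strand): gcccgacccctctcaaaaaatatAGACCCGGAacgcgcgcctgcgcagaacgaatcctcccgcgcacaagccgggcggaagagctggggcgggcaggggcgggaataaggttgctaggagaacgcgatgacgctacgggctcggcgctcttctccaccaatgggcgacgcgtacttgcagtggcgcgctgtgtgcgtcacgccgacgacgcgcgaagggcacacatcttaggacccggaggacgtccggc
SLC25A44 (chr1:156193854-156194103, plus strand): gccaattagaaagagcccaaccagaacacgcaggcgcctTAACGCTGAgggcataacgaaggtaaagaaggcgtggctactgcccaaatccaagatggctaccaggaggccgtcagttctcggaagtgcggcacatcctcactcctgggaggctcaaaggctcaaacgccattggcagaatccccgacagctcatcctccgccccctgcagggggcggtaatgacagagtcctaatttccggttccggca
SLC25A53 (chrX:104157010-104157259, minus strand): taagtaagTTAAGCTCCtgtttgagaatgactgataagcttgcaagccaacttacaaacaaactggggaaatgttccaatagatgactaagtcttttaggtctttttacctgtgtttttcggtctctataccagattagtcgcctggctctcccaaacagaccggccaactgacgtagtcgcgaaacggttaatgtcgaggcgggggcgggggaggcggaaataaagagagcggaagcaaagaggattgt

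None of the 4 stretches held TCAAGGTCA or its core AGGTCA on either strand. The closest stretch differed from the ERR element at 2 of 9 bases at SLC25A4, where it reads TAAAGGGCA on the opposite strand, and at 3 of 9 at SLC25A3, SLC25A44 and SLC25A53. Of all 35116 RefSeq promoters, 40.5% had a stretch with at most 2 differences in the same 250 bases and 95.6% one with at most 3, so stretches this close are common among promoters. The 4 stretches differed in composition, with a GC content of 71.6% at SLC25A4, 66.0% at SLC25A3, 57.6% at SLC25A44 and 46.4% at SLC25A53. They held 27, 34, 14 and 12 CG dinucleotides in that order.

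Across the family, RefSeq promoters of 300 bases (250 before the TSS and 50 after) were at hand for 40 of the 48 carriers, with 50 different windows because some genes have several start sites. No window held TCAAGGTCA, which 0.353% of all promoters hold. The shorter AAGGTCA, part of the longer motif, was in 1 window (2.0%, against 3.92% of all), that of SLC25A34, a carrier of unsettled substrate. The core AGGTCA, contained in both, was in 4 windows (8.0%, against 13.8% of all), those of SLC25A22, SLC25A34, SLC25A36 and SLC25A45. At most 1 difference from TCAAGGTCA, a criterion added after the data were seen, was met by 2 windows (4.0%, against 5.84% of all), those of SLC25A12 and SLC25A18. The exact match to AAGGTCA at SLC25A34 and the 2 stretches with 1 difference from TCAAGGTCA are shown, with up to 10 bases on each side and the matched stretch in capitals, to set them beside the peaks of the same genes.
SLC25A34 (chr1:15736138-15736164, plus strand): cagtcccaagTGACCTTtcccccagat
SLC25A18 (chr22:17563422-17563450, plus strand): tcaatgcaggTGCCCTTGAgactcctgca
SLC25A12 (chr2:171894195-171894217, minus strand): agcatggcggTCAAGGTGActcc

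Of these genes SLC25A34 and SLC25A12 had no peak at any distance, and the SLC25A18 peak was centred at -4834 bp, whereas its near match started 66 bases before the TSS. The sequences under the peaks themselves were not analysed here.

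Between 1 and 10 kb from the TSS, 5 carriers had a peak. SLC25A23 encodes a calcium-regulated carrier of ATP-Mg and phosphate, and its peak had the highest score of the 14, 572, above 89.6% of all peaks. It lay on chromosome 19, 6457970 to 6459242, in intron 1 of 9, 1175 bp from the TSS, and was annotated to a MIRb element of the SINE class. The next peak on the chromosome was 278 kb away, so that this was an isolated peak.

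The other 4 proximal peaks were upstream and weaker. SLC25A13 encodes citrin, the aspartate/glutamate carrier of liver and many other tissues, and had an intergenic peak of score 150 at -9337 bp (chromosome 7, 95960238 to 95961355). SLC25A18, a glutamate carrier, had an intergenic peak of 115 at -4834 bp (chromosome 22, 18037787 to 18038912). SLC25A39, which carries glutathione into mitochondria, had one of 106 at -2786 bp (chromosome 17, 42404513 to 42405493). SLC25A1, the citrate carrier that supplies cytosolic citrate for lipid synthesis, had a peak of 74.6 at -6439 bp (chromosome 22, 19172298 to 19173183). It was not intergenic but lay in intron 28 of 31 of the neighbouring gene CLTCL1. The lowest of these 4 scores exceeded 30.5% of all peaks and the highest 63.0%.

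Peaks beyond 10 kb were named for 4 more carriers. SLC25A25, a relative of SLC25A23 that also exchanges ATP-Mg and phosphate, had the second highest score of the 14, 412, in its intron 1 of 9 (chromosome 9, 130839771 to 130842137). At 10475 bp it fell just outside the distance of 10 kb, while the SLC25A13 peak at -9337 bp fell just inside. SLC25A16, a carrier linked to coenzyme A, had a peak of 147 at 11.2 kb in intron 2 of 8 (chromosome 10, 70275393 to 70276699), in an LTR10C element. SLC25A30, a carrier related to the uncoupling proteins, had an intergenic peak of 124 at -16.4 kb (chromosome 13, 46008451 to 46009468).

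SLC25A36, a carrier of pyrimidine nucleotides, was the only one of the 12 with more than 1 peak. Its 3 peaks were all intergenic and upstream on chromosome 3, at -13.9 kb (140646136 to 140647348, score 112), -39.0 kb (140620915 to 140622367, score 60.4) and -111 kb (140548878 to 140549990, score 114). The middle one, in a MER3 DNA transposon, had the lowest score of the 14 and the highest conservation score, 0.380. Under the older symbol MCART2, SLC25A52, a carrier of NAD, likewise had 3 upstream intergenic peaks on chromosome 18, at -31.3, -37.7 and -49.9 kb with scores of 1279, 95.6 and 304. The strongest (29370972 to 29373329) scored higher than 95.9% of all peaks and higher than any peak named SLC25A.

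Grouped by substrate, the peaks within 10 kb were spread thinly. The group counts use the table's names, and 11.5% of all protein-coding genes, counted by identifier, had such a peak. Of the 4 ADP/ATP carriers only SLC25A4 had one, and SLC25A5, SLC25A6 and SLC25A31 had none named for them. A peak of score 385 was named for SLC25A5-AS1, the gene next to SLC25A5, and its distance from the SLC25A5 TSS was not measured. Of the 4 ATP-Mg/phosphate carriers SLC25A23 had one within 10 kb and SLC25A25 farther out, while SLC25A24 and SLC25A41 had none. The single phosphate carrier SLC25A3 had one. Of the 4 carriers of di- and tricarboxylates SLC25A1 had one, and the dicarboxylate carrier SLC25A10, the oxoglutarate carrier SLC25A11 and the oxodicarboxylate carrier SLC25A21 had none.

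Of the 10 carriers of amino acids and carnitine, 3 had a peak within 10 kb, SLC25A13, SLC25A18 and SLC25A44, beside 11.5% of all genes. The other 7 had none, among them the carnitine/acylcarnitine carrier SLC25A20, the aspartate/glutamate carrier SLC25A12, the glutamate carrier SLC25A22, the glycine carrier SLC25A38, the ornithine carriers SLC25A2 and SLC25A15, and SLC25A29, which moves basic amino acids. Of the 2 glutathione carriers SLC25A39 had one and SLC25A40 none. Of the 10 carriers of cofactors and other nucleotides 0 had one within 10 kb; SLC25A16 and SLC25A36 had peaks farther away, and others, among them SLC25A17, SLC25A26, SLC25A32, SLC25A33, SLC25A42, SLC25A51 and SLC25A52, had none by name.

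The iron carriers SLC25A28 and SLC25A37 had no peak. Among the 3 carriers like the uncoupling proteins, SLC25A14 and SLC25A27 had none. The 8 carriers of other or unsettled substrate, SLC25A34, SLC25A35, SLC25A43, SLC25A45, SLC25A46, SLC25A47, SLC25A48 and SLC25A53, also had none under those names. Of all protein-coding genes, 11.5% had a peak within 10 kb and 29.6% at any distance. The substrate groups hold 1 to 10 genes and were not compared with each other or tested against those shares.

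**Figure D2:**
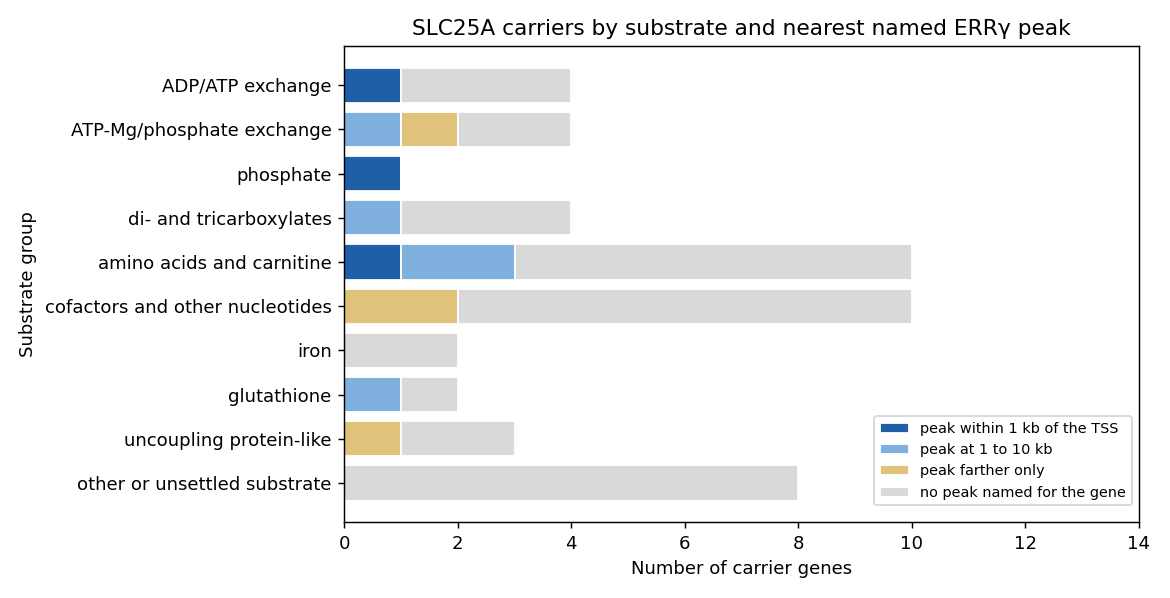
The bars count the 48 carrier genes of each substrate group by their nearest named peak: within 1 kb of the TSS, at 1 to 10 kb, farther only, or none. The groups of iron carriers and of other or unsettled substrate hold 2 and 8 genes and show no peak. SLC25A52 and SLC25A53 are drawn without one because the table names them by older symbols. SLC25A5 is also drawn without one, although a peak was named for SLC25A5-AS1, the gene next to it.

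The scores of the 14 peaks ran from 60.4 to 572 with a median of 119, beside a median of 106 over all peaks, and 10 of 14 exceeded that median. None of the 14 was among the highest-scoring 10% of peaks, whose scores begin at 592. With 14 peaks, a count of 0 allows a share of up to 23.2% by the exact interval, which takes in 10%. The count also depends on the names, because the SLC25A52 peak of score 1279, listed under an older symbol, was in that 10%. Taking for each of the 8 carriers its strongest peak within 10 kb, the median was 132, or 150 over the 9 carriers counted with current symbols, beside 151 over the 2301 protein-coding genes with such a peak. Within 1 kb the order turned, with a median of 243 over 3 carriers, or 280 over 4 with current symbols, beside 164 over all protein-coding genes with a peak there.

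By position, 3 of the 14 peaks lay within 1 kb of a TSS (21.4%, beside 6.02% of all peaks). There were 5 at 1 to 10 kb (35.7%, beside 13.5%) and 5 at 10 to 50 kb (35.7%, beside 29.0%). Beyond 50 kb there was 1 (7.14%, beside 51.5%). Of the 14 peaks, 10 were upstream and 4 downstream of the TSS, beside 43.4% upstream in all. By the authors' annotation 7 were intergenic (50%, beside 51.9% of all) and 4 intronic (28.6%, beside 41.6%). There were 2 at a promoter (14.3%, beside 3.74%) and 1 in a 5' UTR (7.14%, beside 0.407%), and 3 lay in repeats (21.4%, beside 34.7%). The 3 peaks within 1 kb had GC fractions from 0.516 to 0.637 and CpG fractions from 0.0440 to 0.0885. The other 11 had GC fractions from 0.372 to 0.588 and CpG fractions from 0.00248 to 0.0356, so the CpG ranges of the peaks within and beyond 1 kb did not overlap. Over all peaks the median CpG fraction was likewise higher within 1 kb of a TSS, 0.0488, than farther away, 0.00653. There the ranges did overlap, with 0 to 0.121 within 1 kb and 0 to 0.103 farther away.

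The gene names of the table hide part of what lay in carrier genes. By the transcript each peak was annotated to, SLC25A21, the oxodicarboxylate carrier, held 11 intronic peaks, more than any other carrier, and none was named for it. Of the 11 peaks, 7 were named for the antisense gene SLC25A21-AS1 and 4 for the transcription factor gene PAX9. They spread over 477 kb of chromosome 14 (37151710 to 37628852), with 7 in intron 1, 1 in intron 2, 2 in intron 3 and 1 in intron 9 of 9. Their scores ran from 58.8 to 262 with a median of 119, and 7 exceeded the median of all peaks.

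The SLC25A21 peaks were wide. Their widths ran from 1165 to 4309 bp with a median of 2277 bp, and 10 of 11 exceeded the 1219 bp that is the median of all peaks. Their GC fractions were between 0.324 and 0.414. Their CpG fractions ran from 0.00259 to 0.0106, a range that took in the median of all peaks beyond 1 kb, 0.00653. Of the 11 peaks, 3 lay in repeats, beside 34.7% of all peaks. The nearest to any named TSS was 14.1 kb away, so they were intronic peaks far from an annotated start. Of the 3231 genes with at least 1 intronic peak by this matching, the median had 1, 29 others had 11 or more, and 99.1% had fewer than 11. Longer genes have more room for peaks, and gene length was not adjusted for.

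**Figure D3:**
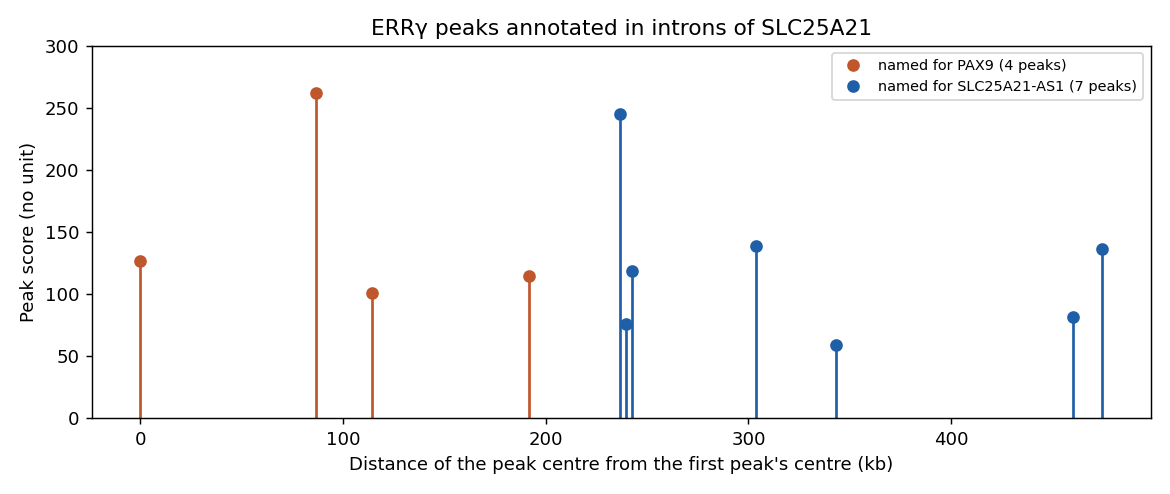
Each line is 1 of the 11 peaks annotated in introns of SLC25A21, placed by the distance of its centre from the centre of the first in kb, with its score as the height and the gene it was named for as the colour. The 4 peaks named for PAX9 come first and the 7 named for SLC25A21-AS1 follow, with scores from 58.8 to 262.

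Names of other kinds held further peaks. In all, 12 peaks were named for non-coding genes or pseudogenes with an SLC25A symbol, 7 of them for SLC25A21-AS1, 2 for SLC25A48-AS1, 2 for the pseudogene SLC25A51P1 and 1 for SLC25A5-AS1. The SLC25A5-AS1 peak (chromosome X, 118602542 to 118604001) was centred at -188 bp from the antisense gene's TSS and scored 385, above 84.5% of all peaks. SLC25A5, the ADP/ATP carrier of proliferating cells, is the next gene in the RefSeq order, and how far this peak lay from its own TSS was not measured. A peak of score 123 at the end of SLC25A22 (chromosome 11, 789261 to 790015) was named for CEND1, whose TSS was 488 bp away.

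Genes that work with the carriers, or beside them, were taken from lists chosen with earlier results of these data known, so their counts are descriptions. They were counted by gene identifier, like all protein-coding genes, so the carriers to set beside them are the 9 of 48 with current symbols. The 5 genes of the same family with other symbols are UCP1, UCP2, UCP3, MTCH1 and MTCH2. A peak within 10 kb was found at 1 of these 5 genes (20%, exact interval 0.505 to 71.6), beside 11.5% of all protein-coding genes. With 5 genes the interval is wide and takes in the share of all genes. The gene was MTCH2, an insertase of the outer mitochondrial membrane. Its peak lay at -290 bp with a score of 926, which exceeds every peak named SLC25A. UCP3 had a peak of 450 at -60.9 kb, in an intron of another gene, C2CD3.

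Other transport proteins of the mitochondrial membranes had a peak within 10 kb at 8 of 15 genes (53.3%, exact 95% interval 26.6 to 78.7), beside the 11.5% of all protein-coding genes. By the table's own names the count was 6, because both genes of the mitochondrial pyruvate carrier stand under older symbols there. Both had a peak, MPC1 at -466 bp with a score of 586 and MPC2 at 1076 bp with 1037. The sideroflexin genes SFXN1, a serine transporter, and SFXN4 had peaks of 247 and 384 at 799 and 294 bp. The channel genes of the outer membrane VDAC1 and VDAC2 had peaks of 60.1 and 145 at 1105 and 585 bp. LETM1, of inner-membrane ion exchange, had 108 at 2812 bp.

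On the import route of carrier proteins 4 of 9 genes had a peak within 10 kb (44.4%, 13.7 to 78.8), beside 11.5% of all genes. The small chaperones of the intermembrane space TIMM10 and TIMM9 had peaks of 1697 at 335 bp and 522 at 77 bp. TIMM13 had one of 319 at 166 bp, annotated to the end of another gene, LMNB2. TIMM10B, which the table names by an older symbol and without which the count was 3, had a peak of 93.7 at 4973 bp. TIMM22, the channel that inserts carriers, was among the 5 without a peak within 10 kb.

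Of the 9 enzymes that act next to a carrier, 5 had a peak within 10 kb (55.6%, 21.2 to 86.3), beside 11.5% of all genes. The malate-aspartate shuttle joins enzymes and carriers. Its enzymes GOT1, GOT2, MDH1 and MDH2 all had peaks within 1 kb, with scores of 2391, 386, 703 and 404. The MDH2 peak was annotated to the promoter of another gene, STYXL1. Of the shuttle carriers SLC25A11, SLC25A12 and SLC25A13, 0 of 3 had a peak within 1 kb, beside 4.16% of all genes. Only SLC25A13 had one within 10 kb, of score 150, beside 11.5% of all genes. With 3 carriers, a count of 0 allows a share of up to 70.8% by the exact interval. In the carnitine route CPT1A, which makes acylcarnitine at the outer membrane, had a peak of 1637 at -2260 bp, whereas SLC25A20, which carries acylcarnitine inward, had none. The other carnitine enzymes of the list also had no peak at any distance, so CPT1A does not stand for the enzymes of that route. The difference between carriers and these lists was not tested.

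Transporters of other SLC families, most of which act at other membranes, had a peak within 10 kb at 41 of 338 genes (12.1%, 8.85 to 16.1). Within 1 kb there were 12 (3.55%, 1.85 to 6.12). Both shares were near those of all protein-coding genes, 11.5% and 4.16%. The median strongest score of these other SLC genes within 10 kb was 114. It was 150 for the 9 SLC25A carriers with current symbols and 151 for all protein-coding genes with such a peak.

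**Figure D4:**
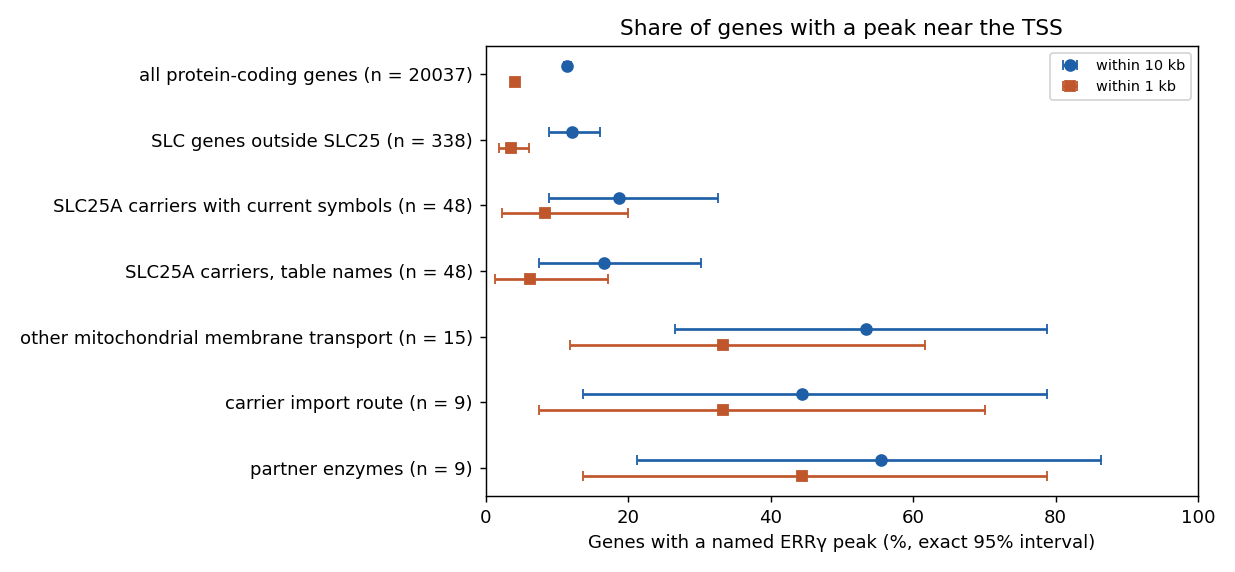
Points give the share of genes in each list with a named ERRγ peak within 10 kb (circles) or 1 kb (squares) of the TSS, and bars the exact 95% intervals, which cover counting error only. All rows but the one marked table names count genes by identifier. The carriers with current symbols are at 18.8% and 8.33%, all protein-coding genes at 11.5% and 4.16%, and the 3 lists of mitochondrial partners lie between 44.4% and 55.6% within 10 kb.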

How the data were processed

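ChIP-seq libraries of BT-474 cells, 2 for ERRγ and 1 input, were represented by 1 merged peak table. The tools named with the hg19 build, per the submitters' processing notes, are BWA 0.5.9, HOMER 3.18 and MACS 1.4.1. Thresholds, read filters and how the libraries were merged were not given in the sources used here. Per the file headers, the deposited table gives for each peak a score, whose unit is not known, a conservation score, the signed distance to the nearest TSS, and GC and CpG content, which are deposited as a fraction although the headers name a percentage. Scores were used only to rank peaks within the list. Each peak names 1 gene, so the second gene of a shared promoter is missed.

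Members were the peaks whose gene name is SLC25A and a number; carriers with and without a peak were named, and some genes that the lists hold are not reported here. Gene identifiers of 15153 peaks (99.5%) matched a RefSeq table of GRCh38.p14, used for current symbols, gene order and the background of protein-coding genes. Counting was done with pandas 2.3.3 and exact intervals with scipy 1.17.1 in Python 3.11.15, and the counting and motif search were tested on simulated data. Members, lists and distances were chosen with earlier results of these data known. No gene list was tested. Alternatives were the distance, the score, the naming, merging of peaks within 500 bp and the motif.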

Additional observations from a re-analysis of the deposited data

How the results depend on the processing

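The count of 8 carriers with a peak within 10 kb fell to 3 at 1 kb, to 5 with the upper 50% of peaks by score and to 0 with the upper 10%, where fewer peaks are counted by construction. It was 12 at 50 kb and at any distance, and 9 with current symbols, when the gene of a promoter annotation also counted, or with the UCP and MTCH genes added. By substrate, at 1 kb the counts fell from 1 to 0 for ATP-Mg/phosphate, for di- and tricarboxylates and for glutathione, and from 3 to 1 for amino acids and carnitine. At any distance they rose from 1 to 2 for ATP-Mg/phosphate, from 0 to 2 for cofactors and other nucleotides, and from 0 to 1 for the uncoupling protein-like carriers. The other substrate counts were the same at 10 kb, 1 kb and any distance. The 3 peaks within 1 kb were also 3 at 500 bp and after merging. The median score of 132 was 243 at 1 kb, where that of all protein-coding genes was 164, and 135 at 50 kb and at any distance. Carriers with a motif in the promoter numbered 0 for TCAAGGTCA, 1 for AAGGTCA, 4 for AGGTCA and 2 with at most 1 difference from TCAAGGTCA. No paired analysis was possible because the table holds 1 merged list, and for the same reason no library could be left out. The depth of the libraries is unknown here, so a carrier without a peak may be bound below the limit of detection.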
